A study of Homo sapiens with 9 samples.

Results

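SC01 is a subclone of the BRAF-mutated SK-MEL-5 line, an established line of human melanoma cells, and it was compared with its sister clones SC07 and SC10. Each clone was grown out of a single SK-MEL-5 cell by limiting dilution without drug, so each stands for 1 cell of the parental line. Their first response to the BRAF inhibitor PLX-4720 decided which clones were sequenced, per the labels, which do not give the response of each. All 9 libraries, 3 per clone, were made from untreated cells, and the BRAF mutation is shared by all of them. The comparison therefore asked how untreated SC01 differs from both sisters. It used the 3 SC01 libraries of the 9 in all, with the contrast SC01 minus the mean of SC07 and SC10. A gene was counted as apart from both when SC01 differed from SC07, from SC10 and from their mean in 1 direction, with adjusted p-values under 0.05 for all 3 in the quasi-likelihood test of edgeR.

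Melanoma cells descend from melanocytes, the pigment cells of the skin, which in turn come from the neural crest. MITF, a transcription factor, governs their pigment enzymes and, through the coactivator PPARGC1A, part of their mitochondrial genes. Melanoma cells are known to vary between pigmented states rich in such transcripts and states with more matrix, adhesion and inflammatory transcripts. BRAF mutation keeps the MAP kinase pathway active, whose output includes the AP-1 factors and the phosphatases that feed back on it.

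Total counts ran from 30224066 to 39454087 per library. No label states separate cultures behind the 3 libraries per clone, so p-values measure the spread between libraries, which may be technical, and clone and batch cannot be told apart. The first principal component, with 63.9% of the variance, set the SC01 libraries (-87.6 to -86.2) apart from the other 6 (40.7 to 45.8). SC10 replicate 3 stood apart from the other 2 SC10 libraries on the third component (-27.4 against 12.7 and 15.4), and 8639 genes were apart from both without it, against 8386 with it. Of 13 melanoma and melanocyte markers 12 were tested, with a summed level of 11100 to 11700 CPM (counts per 1e6 counts, TMM-scaled) in SC01, 24700 to 25200 in SC07 and 15400 to 15700 in SC10. Of these 12 markers 5 were higher than both sisters and 6 lower, none of them at least 2-fold from both. SOX10, a defining melanocyte factor, is listed at 0 counts in each of the 9 libraries. With the counting settings unknown, this 0 is not read as absence of the transcript. Immune markers summed to 1.62 to 1.83 CPM in SC01, against 3.82 to 5.08 in SC07 and 1.84 to 2.07 in SC10. Fibroblast markers summed to 163 to 170, 438 to 499 and 365 to 402 CPM in the same order, of which LUM alone gave 131 ± 2.21 CPM in SC01 (mean ± SD, n = 3 here and below). The fibroblast genes COL1A2, COL3A1, FAP, THY1 and POSTN and the immune genes CD3E, CD14, CD68 and LYZ did not pass the expression filter. As each clone was grown out of a single melanoma cell, these sums are given as transcript levels and not as shares of cell types. In bulk RNA fewer cells with a transcript and less of it per cell cannot be told apart.

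SC01 differed from both sisters in a large share of its transcriptome. Of 18009 genes tested, 12038 (66.8%) differed between SC01 and the mean of SC07 and SC10, 6035 higher (33.5%) and 6003 lower (33.3%). Against SC07 alone 62.0% of genes differed, against SC10 alone 65.9%, and between SC07 and SC10 47.9%. Apart from both sisters in 1 direction were 8386 genes (46.6%), with 4024 higher (22.3%) and 4362 lower (24.2%). SC01 lay between its sisters and apart from each in 628 genes, differed from 1 clone alone in 4998 and from neither in 3997. The SC01 libraries did not overlap the other 6 in 8928 genes (49.6%), lying above them in 4400 (24.4%) and below in 4528 (25.1%). Higher in SC01 were 48.0% of the genes apart from both, against 59.8% when libraries were scaled by their totals alone, which moved the median over all genes from 0.015 to 0.124.

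Most of these differences were small. The median of the smaller pair change was 0.49 on the log2 scale for genes higher in SC01 and -0.57 for genes lower in it. At least 2-fold from both sisters were 2149 genes (11.9%), 898 higher (4.99%) and 1251 lower (6.95%). At least 4-fold from both were 310 higher and 474 lower, and at least 64-fold 22 higher and 24 lower. Among genes at least 4-fold from both, 123 of the 310 higher and 234 of the 474 lower differed by less than 1.5-fold between SC07 and SC10. Of protein-coding genes, 3315 of 13591 were higher and 3871 lower, whereas of pseudogenes 281 of 1503 were higher and 137 lower.

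Some genes were transcribed in SC01 and near 0 in both sisters. With at least 5 CPM in SC01 and under 0.5 CPM in each of the other 6 libraries there were 24 genes, 23 of them protein-coding. PCSK1, a prohormone-cleaving protease (GRCh38 chromosome 5, 96390415 to 96434143, minus strand), stood at 19.9, 18.7 and 19.3 CPM in the SC01 libraries. It had 3 counts over the SC07 libraries and 5 over those of SC10. Its count ratio to SC07 was 678 (exact 95% counting interval 232 to 3290). PXDN, a peroxidase that acts on collagen IV (chromosome 2, 1631887 to 1744852, minus strand), gave 67.2, 64.5 and 69.8 CPM in SC01, 0.218, 0.237 and 0.148 in SC10, and 0 counts in SC07. Taking 3 counts over a clone's libraries as the floor, SC01 was at least 2356-fold higher than SC07. The VEGF receptor gene FLT1 read 5.87 to 7.72 CPM in SC01. SC07 had 0 counts of it, so SC01 was at least 238-fold higher by the same floor, and the SC10 libraries held 3 counts.

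The same pattern held for receptors, signalling adaptors and secreted proteins. EFEMP1, a matrix protein of the fibulin family, had 76.5 ± 2.53 CPM in SC01 against 0.169 ± 0.0671 in SC07 and 0.198 ± 0.120 in SC10. GRIK3, a kainate-type glutamate receptor subunit, had 19.9 ± 0.516 CPM and DOK5, a docking protein of receptor kinases, 8.99 ± 0.120 CPM in SC01. Both genes were below 0.2 CPM in each library of the sisters. ARHGAP6, a GTPase-activating protein, had 705 counts over the SC01 libraries, 2 over SC07 and 0 over SC10, which is at least 242-fold higher than SC10. CDCP1, a transmembrane protein phosphorylated by Src kinases, had 8.58 ± 0.844 CPM in SC01 and under 0.13 CPM in each other library. SLC35F1, AK5 and IGFN1 were also among the 14 most raised genes, with SC01 means of 9.73, 11.1 and 21.9 CPM and sister means of at most 0.384 CPM.

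CPA4, a secreted carboxypeptidase, is shown with its promoter because it is among the 14 most raised genes and holds 2 AP-1 matches. Its libraries read 6.37, 4.74 and 5.12 CPM in SC01 and at most 0.0593 CPM in the others, with 3 counts over SC07 and a count ratio of 191 (exact 95% interval 65.0 to 929). The 250 bases before its RefSeq start on GRCh38.p14 (chr7:130292911-130293160, plus strand) are given 5′ to 3′. Capitals mark, in order, AAGGTCA of the estrogen-related receptors on the opposite strand, GGAATG of the TEAD factors, and TGANTCA of AP-1 at 48 and 15 bases before the start. Such matches are letters alone, and binding was not measured.
CPA4: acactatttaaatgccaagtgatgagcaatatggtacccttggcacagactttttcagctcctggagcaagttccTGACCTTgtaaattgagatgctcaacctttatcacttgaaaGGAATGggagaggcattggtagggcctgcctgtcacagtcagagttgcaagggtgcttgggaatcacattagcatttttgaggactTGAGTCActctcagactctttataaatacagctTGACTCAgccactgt

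Genes with the opposite pattern were nearly silent in SC01 alone. With under 0.5 CPM in each SC01 library and at least 5 CPM in both sisters there were 17 genes, 15 of them protein-coding. KCNG4, a modifier subunit of voltage-gated potassium channels (chromosome 16, 84218667 to 84239750, minus strand), read 0, 0.0632 and 0.180 CPM in SC01. The SC07 libraries gave 43.1, 43.5 and 45.6 CPM and those of SC10 32.3, 30.6 and 29.3, a log2 change of -9.06 and -8.54 respectively. KCNE4, another potassium channel subunit, had 0.241 ± 0.120 CPM in SC01, against 14.1 ± 0.622 in SC07 and 19.1 ± 1.58 in SC10. ATP2B2, a plasma membrane calcium pump, had 3 counts over the SC01 libraries, with count ratios of 226 (76.9 to 1100) for SC07 and 679 (232 to 3300) for SC10. CTNND2, encoding delta-catenin, also had 3 counts there, with ratios of 261 (88.8 to 1270) and 199 (67.7 to 967).

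The remaining strongly lowered genes include epithelial and secretory ones. TFCP2L1, a transcription factor, stood at 0.0857 ± 0.0747 CPM in SC01 against 10.8 ± 0.428 and 12.2 ± 0.834 in SC07 and SC10. SYT13, a synaptotagmin, measured 1.06 ± 0.121, 80.2 ± 1.97 and 111 ± 0.642 CPM, TJP3, a tight junction protein, 0.143 ± 0.0943, 6.54 ± 0.448 and 6.03 ± 0.134 CPM, and CA2, a carbonic anhydrase, 0.0774 ± 0.0703, 5.51 ± 0.292 and 7.47 ± 0.927 CPM. MUC19, a mucin, was at 0.848 ± 0.123, 110 ± 16.7 and 36.6 ± 5.03 CPM. The naming rule required the SC01 libraries of these 5 genes to lie below the other 6. APOLD1 (1.99, 168 and 221 CPM) shares 25.4% of its exon bases with DDX47, and GAGE2A (0.176, 13.5 and 6.12 CPM) belongs to a family of near-identical copies, so both are uncertain.

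**Figure D1:**
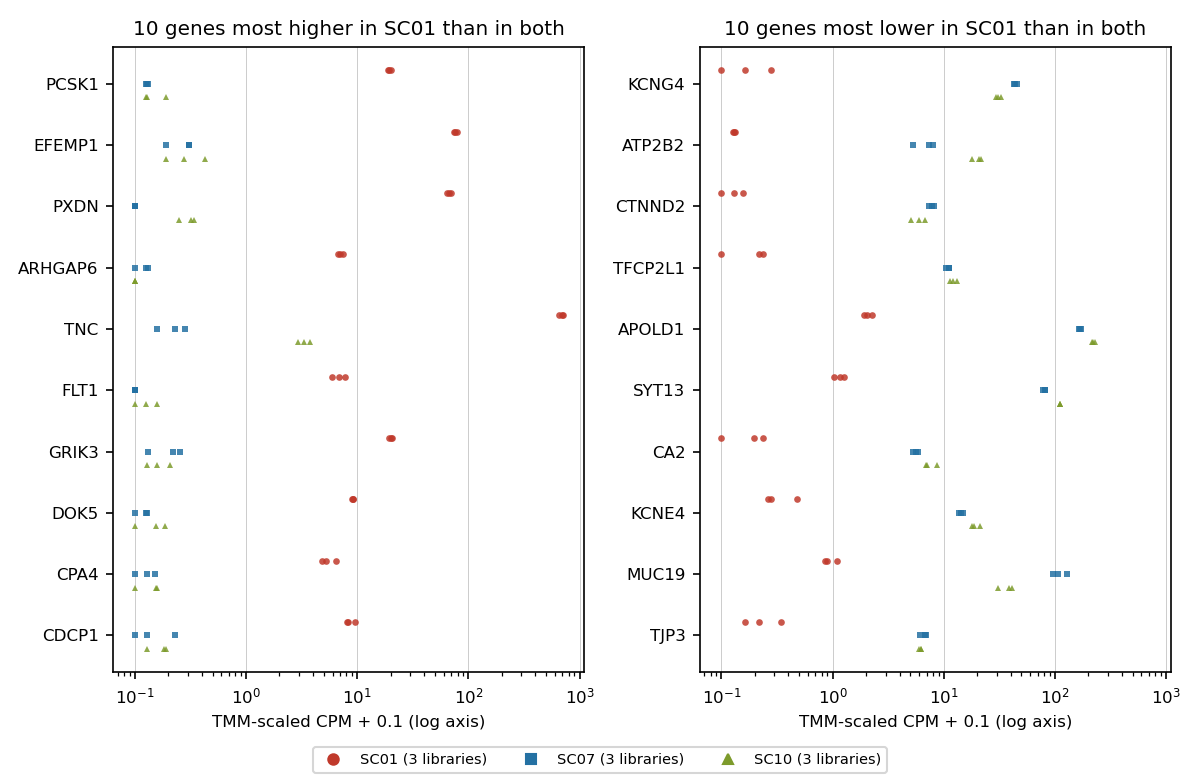
TMM-scaled CPM plus 0.1 on a log axis for the 10 genes most higher and the 10 most lower in SC01 than in both sisters; each point is 1 library, with red circles for SC01, blue squares for SC07 and green triangles for SC10. Genes were drawn only if their 3 SC01 libraries lay on 1 side of the other 6, so that separation was fixed by the choice. In SC01, PCSK1 lay at 18.7 to 19.9 CPM and KCNG4 at up to 0.180 CPM.

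Matrix transcripts were raised in SC01, several of them from near 0. Of 36 tested matrix glycoproteins and proteoglycans 17 were higher than both sisters and 5 lower, with a median log2 change of 0.80 against 0.015 over all genes tested. TNC, tenascin C (chromosome 9, 115019578 to 115118257, minus strand), read 706, 694 and 656 CPM in SC01. It read 0.183, 0.129 and 0.0597 CPM in SC07 and 3.68, 3.23 and 2.81 in SC10. FN1, fibronectin (chromosome 2, 215360440 to 215436172, minus strand), read 2332, 2307 and 2219 CPM in SC01, against 35.0, 35.4 and 37.6 in SC07 and 56.8, 56.4 and 45.6 in SC10. Its log2 change was 5.99 ± 0.0735 (SE) against SC07 and 5.43 ± 0.0711 against SC10, with an adjusted p of 3.52e-24 in edgeR for the mean of both. FN1 had the largest difference in CPM of all genes higher in SC01 under the naming rule.

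Collagens and the enzymes that cleave or crosslink matrix moved mostly the same way. Of 19 tested collagen chains 11 were higher and 4 lower, with a median of 1.17 on the log2 scale. The paired basement membrane chains COL4A2 (34.8 ± 1.87 CPM in SC01, 0.657 ± 0.0383 in SC07, 4.89 ± 0.198 in SC10) and COL4A1 (19.7 ± 1.14, 0.502 ± 0.173 and 3.81 ± 0.239 CPM) lie head to head on chromosome 13. COL27A1, a fibrillar collagen, measured 36.1 ± 0.917, 4.50 ± 0.863 and 5.75 ± 0.346 CPM. Of 28 proteases, inhibitors and crosslinkers 13 were higher and 4 lower. LOXL3, a lysyl oxidase that crosslinks matrix, read 153, 144 and 147 CPM in SC01, against 2.04, 1.78 and 1.28 in SC07 and 3.35, 3.53 and 4.58 in SC10, and it shares 19.3% of its exon bases with HTRA2. MMP14, a membrane-bound collagenase, measured 707 ± 4.39 CPM in SC01, against 247 ± 14.6 in SC07 and 183 ± 4.46 in SC10. MMP1, interstitial collagenase, was at 7.24 ± 1.39, 0.0773 ± 0.0368 and 0.520 ± 0.0668 CPM.

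LOXL3 is shown for its 2 adjacent TEAD matches, since TEAD target transcripts are described below. The 250 bases before its RefSeq start (chr2:74553943-74554192, minus strand) follow 5′ to 3′, with GGAATG in capitals at 118 and 100 bases before the start. GGAATG was present in 10.8% of promoters of genes higher in SC01, 10.5% of those lower and 10.9% of all tested. These matches are letters alone, and binding was not measured.
LOXL3: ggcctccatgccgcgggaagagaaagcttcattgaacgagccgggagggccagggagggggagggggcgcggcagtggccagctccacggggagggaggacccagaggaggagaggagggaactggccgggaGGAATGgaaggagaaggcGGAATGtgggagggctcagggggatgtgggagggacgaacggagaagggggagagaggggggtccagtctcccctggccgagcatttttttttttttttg

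Receptors for matrix and the actin cytoskeleton also stood apart. Of 27 integrins and laminins 13 were higher and 4 lower, among them LAMB3, a laminin-332 chain (15.8 ± 0.876, 2.33 ± 0.254 and 2.22 ± 0.105 CPM in SC01, SC07 and SC10), and ITGB8, an integrin that activates TGF-beta (102 ± 4.02, 15.9 ± 0.611 and 25.9 ± 2.83 CPM). ITGA7, a laminin receptor chain, went the other way at 16.4 ± 1.27 CPM in SC01 against 241 ± 7.06 and 174 ± 1.78. Of 33 actin and focal adhesion genes 23 were higher and 4 lower, with a median log2 change of 0.71. FLNA, filamin A, which crosslinks actin, read 1145, 1160 and 1133 CPM in SC01 and 163 to 338 CPM in the other 6 libraries. PARVA, an adaptor at focal adhesions, measured 65.2 ± 3.11, 9.28 ± 0.863 and 9.98 ± 0.411 CPM, and RND3, an atypical small GTPase, 21.6 ± 1.88, 0.460 ± 0.132 and 1.29 ± 0.357 CPM. ACTB, beta-actin, was also among the largest gains in CPM (3913 ± 38.5, 2291 ± 100 and 2622 ± 35.0 CPM).

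Some cell-cell adhesion genes had large changes, in either direction. Of 27 cadherins and adhesion molecules 9 were higher and 7 lower, beside 22.3% higher and 24.2% lower over all genes tested. CDH2, N-cadherin, read 22.6, 20.9 and 24.4 CPM in SC01, against 0.457, 0.438 and 0.925 in SC07 and 0.136, 0.237 and 0.561 in SC10. CDH7, a type II cadherin, lay at 0.0688 ± 0.0457 CPM in SC01 against 10.6 ± 0.432 in SC07 and 3.61 ± 0.603 in SC10. NCAM1, a neural adhesion molecule, was at 22.4 ± 1.16 CPM in SC01 against 0.416 ± 0.115 and 0.874 ± 0.299, with 5.5% of its exon bases shared with its antisense gene. CADM3, which shares 36.8% of its exon bases with its antisense gene, had 84.6 ± 2.54 CPM in SC01, against 0.120 ± 0.0598 in SC07 and 2.52 ± 0.0696 in SC10.

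Many targets of YAP, and 2 AP-1 subunits, were higher in SC01. YAP is a transcriptional coactivator that works through TEAD factors and responds to cell spreading. Of 22 tested YAP and TEAD targets 13 were higher than both sisters and 1 lower, with a median of 0.67. NT5E, an ecto-nucleotidase, read 192, 179 and 182 CPM in SC01, 1.88 to 2.25 CPM in SC07 and 25.7 to 27.6 CPM in SC10, and MYOF, a membrane repair protein, measured 202 ± 10.6, 10.2 ± 0.518 and 30.5 ± 2.58 CPM. CYR61, a matricellular protein, was lower in level but again highest in SC01 (6.01 ± 0.517, 0.745 ± 0.140 and 1.60 ± 0.313 CPM). CAV1, the coat protein of caveolae, measured 190 ± 5.09, 30.9 ± 1.54 and 53 ± 3.1 CPM.

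Among 37 MAP kinase feedback and AP-1 genes 14 were higher and 9 lower, beside 22.3% higher and 24.2% lower over all genes tested. The median log2 change of the list was 0.01, and the lower count lay near the share over all genes. JUN, an AP-1 subunit, read 34.4, 33.1 and 34.9 CPM in SC01, against 3.99, 5.44 and 4.72 in SC07 and 4.82, 4.45 and 3.37 in SC10. JUND, another subunit, measured 91.5 ± 6.31 CPM against 28.0 ± 0.654 and 28.9 ± 1.81. The phosphatases DUSP1 and DUSP2, which inactivate MAP kinases, were lower in SC01: DUSP1 measured 7.86 ± 1.02 CPM against 42.2 ± 2.05 and 32.4 ± 1.60. DUSP2 had 3 counts over the SC01 libraries and means of 1.42 and 1.28 CPM in SC07 and SC10. Of 39 neural crest and mesenchymal transcription factors 22 were higher and 3 lower, with KLF4 at 7.38 ± 0.214, 1.59 ± 0.200 and 1.40 ± 0.0995 CPM and TFAP2C at 8.19 ± 0.625, 2.2 ± 0.32 and 2.46 ± 0.329 CPM.

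Secreted ligands were lowered more often than raised. Of 32 tested growth factors and ligands 4 were higher than both sisters and 15 lower, with a median of -0.47. NRG3, a ligand of ERBB4, read 2.66, 2.94 and 3.32 CPM in SC01 and 37.6 to 51.9 CPM in the other 6 libraries. VEGFC, a lymphatic growth factor, measured 1.29 ± 0.189, 5.84 ± 0.456 and 7.35 ± 0.418 CPM. Receptor tyrosine kinases gave 11 of 42 higher and 13 lower (14 and 13 with library totals), with a median of 0.02. These counts lay near the shares over all genes tested (22.3% higher and 24.2% lower). MET, the receptor of hepatocyte growth factor, read 93.5, 96.1 and 93.1 CPM in SC01, against 572, 572 and 568 in SC07 and 750, 762 and 657 in SC10. Its log2 change was -2.60 ± 0.051 against SC07 and -2.94 ± 0.051 against SC10. EPHA4, a receptor of ephrins, was likewise lower (3.66 ± 0.516, 44.8 ± 1.44 and 26.9 ± 1.98 CPM).

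Other signalling lists held genes apart from both sisters in each direction, as did all genes tested (22.3% higher and 24.2% lower). The Wnt and Notch counts lay near those shares and are not read as a trait of these lists. Of 43 TGF-beta and BMP genes 12 were higher and 14 lower (16 and 11 with library totals as the scaling), with SMAD9, a BMP-responsive SMAD, at 3.73 ± 0.593 CPM in SC01 against 64 ± 2.5 and 42.7 ± 3.41. Wnt genes gave 10 higher and 8 lower of 36, WNT5A, a non-canonical ligand, measuring 5.31 ± 0.236, 1.10 ± 0.472 and 0.718 ± 0.198 CPM. Notch genes gave 6 higher and 9 lower of 29: the receptor NOTCH1 was higher (33.4 ± 0.280, 9.53 ± 0.378 and 10.5 ± 1.65 CPM) and its ligand JAG1 lower (27.8 ± 0.461, 69.7 ± 4.10 and 121 ± 6.36 CPM). Of 36 axon guidance genes 12 were higher and 12 lower. Among the latter were ROBO2 and its ligand SLIT1, with SC01 means of 0.395 and 0.177 CPM, SC07 means of 6.42 and 1.92 CPM, and SC10 means of 13.0 and 22.7 CPM. Potassium, sodium and calcium channel genes were lowered more often than raised, with 4 higher and 15 lower of 35 (7 and 12 with library totals). The 6 IGF-binding proteins tested gave 2 higher and 2 lower.

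Pigment genes were more often lower than higher in SC01, with TYRP1 among the higher ones. Of 32 tested pigment and melanosome genes 9 were higher than both sisters and 17 lower (9 and 13 with library totals). The list median was -0.33. At least 2-fold from both were 3 of the higher ones, TYRP1 not among them, and 6 of the lower ones. MITF read 448, 450 and 452 CPM in SC01, against 511, 502 and 485 in SC07 and 554, 567 and 528 in SC10. The libraries did not overlap, but its log2 change was small (-0.15 ± 0.0411 and -0.29 ± 0.0411). TYR, tyrosinase, the rate-limiting enzyme of melanin synthesis, read 432, 451 and 474 CPM in SC01, against 908, 897 and 901 in SC07 and 817, 815 and 838 in SC10. MLANA, a melanosome protein, measured 604 ± 20.7, 1072 ± 14 and 1514 ± 68.9 CPM, and PMEL, the amyloid scaffold of melanosomes, 3753 ± 278, 12140 ± 322 and 6827 ± 140 CPM. DCT, dopachrome tautomerase, measured 3480 ± 46.1, 8828 ± 528 and 4820 ± 198 CPM. TYRP1, which acts in the same pathway beside DCT, read 2318, 2424 and 2440 CPM in SC01, against 1205, 1217 and 1215 in SC07 and 721, 694 and 691 in SC10. Its log2 change was 0.98 ± 0.0399 against SC07 and 1.77 ± 0.0408 against SC10, with an adjusted p of 1.86e-23 in edgeR for the mean of both.

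The promoters of TYR, TYRP1 and MLANA are given because TYRP1 differed in direction from the other 2. Each is the 250 bases before the RefSeq start, 5′ to 3′, for TYR at chr11:89177625-89177874, plus strand, for TYRP1 at chr9:12693135-12693384, plus strand and for MLANA at chr9:5890639-5890888, plus strand. Capitals mark the M-box letters CATGTG, known as a binding motif of MITF, on either strand. TYR holds them 104 and 12 bases before its start, TYRP1 144 and 11 bases before it, and MLANA holds none in this window. TYR and TYRP1 thus each carried a pair of matches while their transcripts lay on opposite sides of the sisters. A match is letters alone, and binding was not measured.
TYR: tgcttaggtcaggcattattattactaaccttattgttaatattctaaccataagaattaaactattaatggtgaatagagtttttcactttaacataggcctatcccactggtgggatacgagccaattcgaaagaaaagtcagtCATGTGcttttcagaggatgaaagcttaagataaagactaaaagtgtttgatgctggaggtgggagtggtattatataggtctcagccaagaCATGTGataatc
TYRP1: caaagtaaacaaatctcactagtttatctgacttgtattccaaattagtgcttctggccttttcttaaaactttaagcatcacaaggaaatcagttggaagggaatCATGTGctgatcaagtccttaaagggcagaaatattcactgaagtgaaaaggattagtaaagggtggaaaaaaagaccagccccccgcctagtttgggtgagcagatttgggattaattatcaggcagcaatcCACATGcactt
MLANA: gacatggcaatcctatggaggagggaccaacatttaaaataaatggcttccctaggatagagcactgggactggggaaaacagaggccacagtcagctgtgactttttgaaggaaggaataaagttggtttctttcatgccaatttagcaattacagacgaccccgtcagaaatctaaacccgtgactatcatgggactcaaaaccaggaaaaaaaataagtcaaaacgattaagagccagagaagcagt

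**Figure D2:**
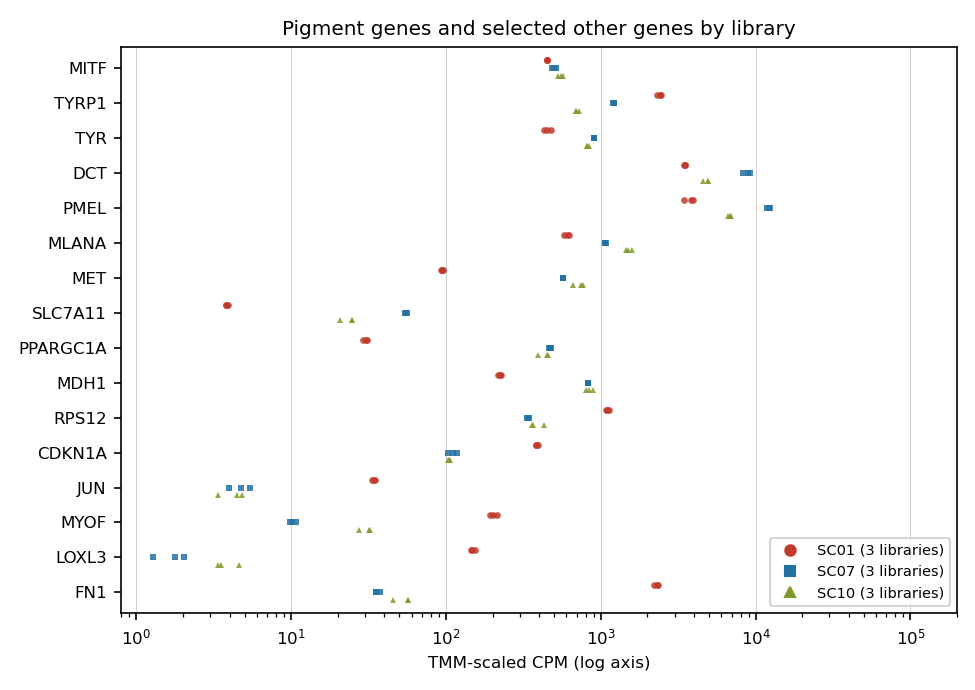
TMM-scaled CPM on a log axis for pigment genes and selected genes of other groups, with 1 point per library (red circles SC01, blue squares SC07, green triangles SC10). TYRP1 is highest in SC01 (2318 to 2440 CPM) whereas TYR, DCT, PMEL and MLANA are lowest there. MITF differs little (448 to 567 CPM over the 9 libraries). Of all 12 melanoma markers tested, 5 were higher than both sisters and 6 lower.

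Many genes of mitochondrial energy metabolism were lower in SC01. PPARGC1A, which encodes PGC-1 alpha, a coactivator of mitochondrial genes, read 30.4, 31.0 and 29.1 CPM in SC01, against 474, 470 and 461 in SC07 and 451, 456 and 393 in SC10. Its log2 change was -3.96 ± 0.0566 and -3.85 ± 0.0564, with an adjusted p of 7.75e-29 for the mean of both in edgeR. Its relative PPARGC1B was higher instead (28.8 ± 0.573, 14.1 ± 1.15 and 13.4 ± 1.11 CPM). Over all 22 biogenesis factors tested 6 were higher and 10 lower (8 and 7 with library totals).

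Of the nuclear genes of respiratory complex I, which oxidises NADH, 26 of 38 were lower than both sisters and 0 higher. With library totals as the scaling 19 were lower and 0 higher. Of the nuclear genes of complexes II to V 35 of 39 were lower and 0 higher (33 and 1 with library totals). Their median log2 change was -0.63. ATP5F1A, the alpha subunit of ATP synthase, measured 435 ± 6.13 CPM in SC01, against 1035 ± 26.8 in SC07 and 975 ± 54.7 in SC10. NDUFS1, the largest complex I subunit, measured 155 ± 2.53, 344 ± 2.15 and 378 ± 4.0 CPM, and CYC1, cytochrome c1 of complex III, 199 ± 6.72, 415 ± 25.4 and 433 ± 14.1 CPM. NDUFS1 shares 11.7% of its exon bases with another gene. Transcripts of the mitochondrial genome were lower too: 26 of 34 tested were lower than both and 0 higher, with a median of -0.89. Their messenger RNAs made up 6.35% to 6.46% of counts in SC01, 8.52% to 8.96% in SC07 and 9.42% to 9.89% in SC10. MT-ND1, a complex I subunit, measured 1755 ± 47.7, 3667 ± 38.1 and 4073 ± 93.2 CPM. Without the mitochondrially encoded genes in the fit, 8345 of the 8386 genes apart from both were tested, and 8283 of them were still apart in the same direction.

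The pathways that feed the respiratory chain were lower as well. Of 31 genes of the tricarboxylic acid cycle and its shuttles 23 were lower and 1 higher (23 and 4 with library totals), the list median being -0.94. MDH1, the cytosolic malate dehydrogenase, read 216, 223 and 226 CPM in SC01, against 824, 831 and 832 in SC07 and 842, 798 and 887 in SC10. GOT1, its partner in the malate-aspartate shuttle, measured 68.5 ± 1.05, 276 ± 11.2 and 305 ± 18.2 CPM, sharing 19.3% of its exon bases with another gene. ME2, mitochondrial malic enzyme, measured 44.4 ± 0.885, 122 ± 3.95 and 135 ± 4.53 CPM. Of 31 fatty acid oxidation genes 21 were lower and 0 higher, for example ACSL3, which activates fatty acids (280 ± 2.17, 694 ± 47.1 and 837 ± 16.3 CPM), and DECR1, a reductase of unsaturated chains (31.4 ± 1.09, 81.9 ± 3.45 and 96.2 ± 6.93 CPM). Glycolysis genes gave 5 higher and 13 lower of 32. HK2, hexokinase 2, the first step, was higher (236 ± 3.6, 64.4 ± 2.67 and 91.1 ± 2.58 CPM), and SLC16A7, a pyruvate and lactate carrier, lower (1.61 ± 0.416, 50.8 ± 2.51 and 23.8 ± 2.92 CPM).

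The 2 kinds of ribosome moved in opposite directions. Of 56 cytosolic ribosomal protein genes 44 were higher than both sisters and 0 lower, with a median of 0.37. Of 53 mitochondrial ones 4 were higher and 28 lower, with a median of -0.29. RPS12, a small-subunit protein, read 1092, 1076 and 1125 CPM in SC01, against 345, 335 and 338 in SC07 and 362, 357 and 431 in SC10, the largest change of its list by the naming rule. RPS18 measured 1455 ± 59.0, 806 ± 12.9 and 785 ± 67.4 CPM. MRPL15, of the mitochondrial large subunit, measured 59.4 ± 2.04, 120 ± 2.33 and 148 ± 10.2 CPM. The elongation factors EEF1A1 (4140 ± 175, 2016 ± 22.7 and 2065 ± 90.9 CPM) and EEF2 (3598 ± 116, 3004 ± 152 and 2807 ± 37.1 CPM) were among the 8 largest gains in CPM. Cytosolic ribosomal protein genes have many processed copies, and how the counting handled reads that match more than 1 place is not given in the sources used here.

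**Figure D3:**
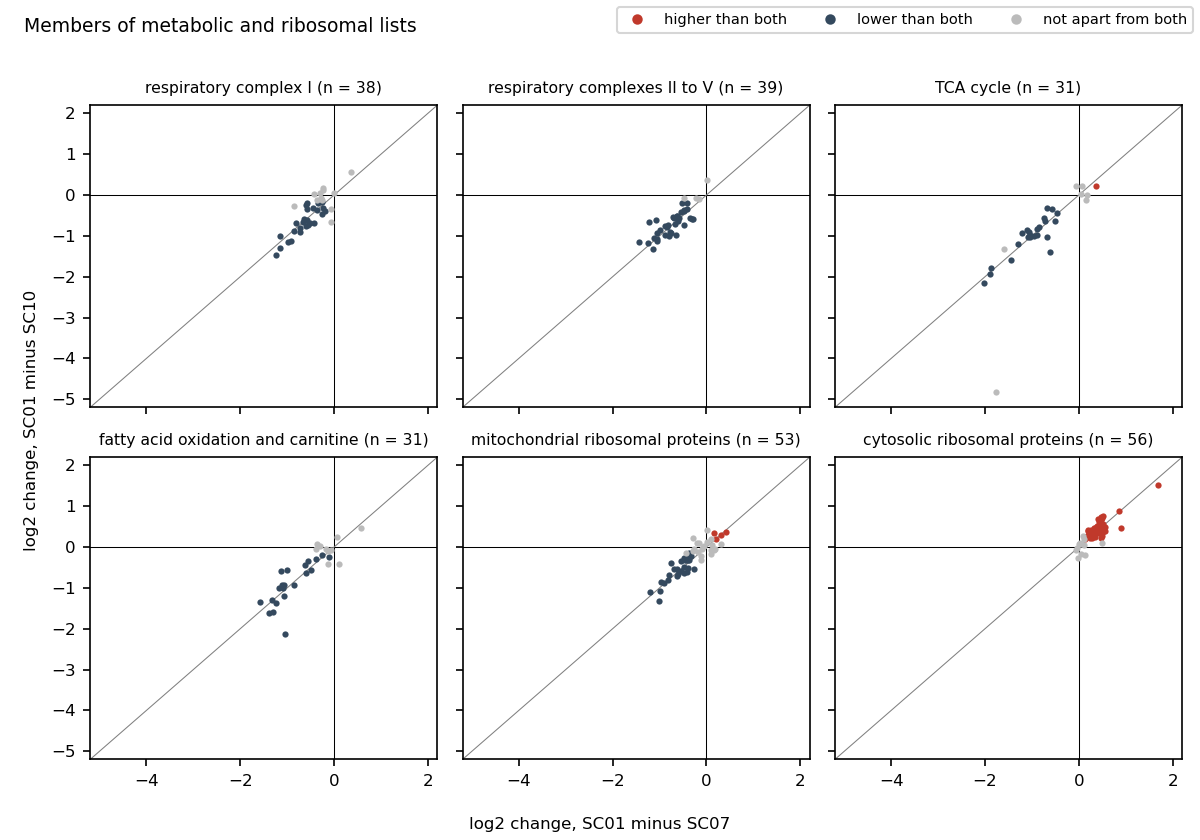
Log2 change of SC01 minus SC07 (x axis) and minus SC10 (y axis) for each tested member of 6 lists; red points are higher than both sisters, dark points lower than both, grey points neither, and the diagonal marks equal change. The respiratory, tricarboxylic acid and fatty acid members lie mostly in the lower left (35 of 39 for complexes II to V), and the cytosolic ribosomal ones in the upper right (44 of 56).

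Lipid, lysosomal and redox genes were mixed, beside 22.3% higher and 24.2% lower over all genes tested. Of 28 cholesterol synthesis genes 13 were higher and 5 lower, with a median of 0.20. None of the higher ones and 2 of the lower ones were at least 2-fold from both. The summed level of the list was 3680 to 3810 CPM in SC01, 5010 to 5370 in SC07 and 4600 to 4980 in SC10. DHCR7, the last step, was lower (148 ± 8.26, 312 ± 16 and 385 ± 12.8 CPM). SCD, a fatty acid desaturase counted in the same list, was lower too (970 ± 21.7, 2103 ± 45.2 and 2110 ± 115 CPM). Lysosomal genes gave 10 higher and 17 lower of 43, with NPC1, a cholesterol exporter, higher (273 ± 10.9, 150 ± 2.06 and 125 ± 10.1 CPM) and the proton pump subunit ATP6V1H lower (61.2 ± 3.01, 119 ± 3.84 and 164 ± 9.88 CPM). GRAMD1B, a sterol transfer protein, had the largest loss in CPM among nuclear genes after PMEL and DCT (196 ± 3.78, 1541 ± 20.1 and 1758 ± 109 CPM). Of 35 glutathione and antioxidant genes 7 were higher and 12 lower (11 and 7 with library totals), and GSR, glutathione reductase, measured 75.9 ± 3.77, 176 ± 8.21 and 180 ± 6.67 CPM. AIFM2, a ferroptosis suppressor, measured 29.6 ± 0.779, 82.5 ± 3.83 and 103 ± 3.03 CPM. SLC7A11, which imports cystine, was at 3.82 ± 0.0690, 54.9 ± 0.692 and 23.4 ± 2.43 CPM, and 9.0% of its exon bases are shared with its antisense gene.

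Stress and inflammatory genes stood apart in both directions, beside 22.3% higher and 24.2% lower over all genes tested. Of 29 unfolded protein and integrated stress response genes 3 were higher and 16 lower (4 and 12 with library totals). The list median was -0.36. Among p53 targets and cell-cycle inhibitors 17 of 27 were higher and 5 lower (18 and 3 with library totals). CDKN1A, the p21 inhibitor, read 378, 383 and 390 CPM in SC01, against 111, 102 and 117 in SC07 and 104, 104 and 107 in SC10, and BTG2, an antiproliferative p53 target, measured 32 ± 0.63, 10.7 ± 0.222 and 10.7 ± 0.584 CPM. GDF15, a stress cytokine also induced by p53, went the other way (525 ± 17.5, 1352 ± 80.2 and 1512 ± 42.6 CPM). Of 40 proliferation genes 14 were higher and 7 lower (20 and 4 with library totals), none by as much as 2-fold from both in the TMM-scaled fit. Of 18 BCL2 family genes 6 were higher and 5 lower (6 and 3 with library totals), with BMF, a killer protein of the BH3 class, at 25.4 ± 0.830, 11.7 ± 0.211 and 11.6 ± 0.214 CPM.

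Chemokine, cytokine and NF-kB genes gave 17 higher and 5 lower of 31, with a median of 0.51. CXCL1, a neutrophil chemokine, read 59.0, 55.8 and 58.3 CPM in SC01, a mean of 1.11 ± 0.130 in SC07, and of 6.94 ± 0.382 in SC10. IL1B, interleukin-1 beta, and its receptor IL1R1 had SC01 means of 3.88 and 3.61 CPM, with no sister library above 0.12 CPM in either gene. CCL2, a monocyte chemokine, measured 6.34 ± 0.790, 0.0779 ± 0.0653 and 0.123 ± 0.0375 CPM. Interferon and antigen presentation genes gave 14 higher and 10 lower of 39, beside 22.3% higher and 24.2% lower over all genes tested. The lower count lay near that share. The lower ones include CD274, which encodes the checkpoint ligand PD-L1 (0.336 ± 0.0980, 3.99 ± 0.235 and 4.91 ± 0.147 CPM), and ISG15, a ubiquitin-like protein (1.21 ± 0.0440, 6.74 ± 0.268 and 5.97 ± 1.09 CPM). Of 49 chromatin and DNA methylation enzymes 14 were higher and 5 lower (27 and 4 with library totals). HDAC9, a class IIa histone deacetylase, measured 25.5 ± 1.98, 3.47 ± 0.375 and 1.1 ± 0.22 CPM. HMG20B, a subunit of a corepressor complex outside that list, was at 1272 ± 53.7, 489 ± 14.6 and 488 ± 20.4 CPM.

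**Figure D4:**
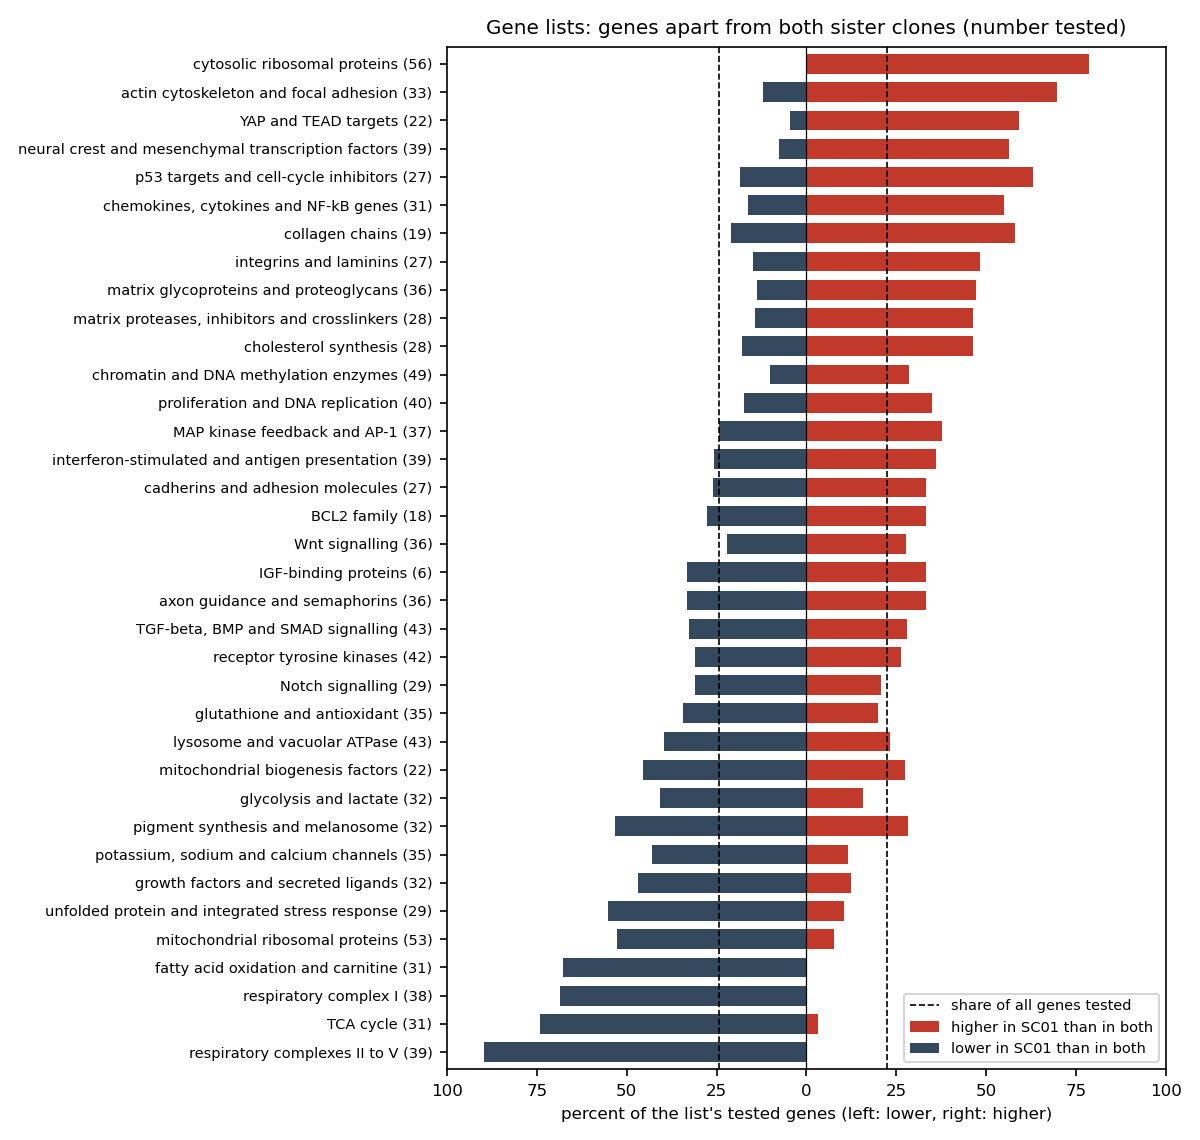
Percent of the tested genes of each of 36 gene lists that were higher (red, right) or lower (dark, left) in SC01 than in both sisters, with the number tested in parentheses; dashed lines mark the shares over all genes tested, 22.3% higher and 24.2% lower. Cytosolic ribosomal proteins (44 of 56 higher) and respiratory complexes II to V (35 of 39 lower) lie at the ends.

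SC01 genes also differed by chromosome in the same direction against both sisters. On chromosome 6, 448 of 873 genes (51.3%) were higher and 92 lower, with medians of 0.40 against SC07 and 0.42 against SC10. Between SC07 and SC10 that median was 0.02. On chromosome 4, 303 of 637 genes (47.6%) were lower and 56 higher, with medians of -0.38 and -0.32. Chromosomes 18 (-0.33 and -0.29), 2 (-0.25 and -0.26) and 8 (-0.26 and -0.43) were lower too. In windows of 10 Mb, the end of chromosome 6 stood out: from 160000001 to 170000000 the medians were 0.95 and 1.07, with 22 of 27 genes higher. From 150000001 to 160000000 they were 0.65 and 0.72, with 29 of 42 genes higher. DNA copy number was not measured. Several named genes lie on these chromosomes: RPS12, RPS18, EEF1A1, NT5E and CDKN1A on chromosome 6, PPARGC1A on chromosome 4, and NDUFS1 and MDH1 on chromosome 2. Other named genes went against the median of their chromosome: FN1, EFEMP1, PXDN, LOXL3 and RND3 on chromosome 2 and CDH2 on chromosome 18 were higher in SC01. With the chromosome's median taken from each gene, the list medians against SC07 and SC10 were 0.38 and 0.37 for cytosolic ribosomal proteins and -0.89 and -0.91 for the tricarboxylic acid cycle, against 0.35 and 0.39, and -0.89 and -0.91, as fitted. Some other list medians moved toward 0. Those of mitochondrial ribosomal proteins went from -0.37 and -0.22 to -0.22 and -0.21. Those of cholesterol synthesis went from 0.22 and 0.20 to 0.09 and 0.13. For interferon-stimulated and antigen presentation genes, 10 of 39 of which lie on chromosome 6, the medians went from 0.18 and 0.01 to 0.00 and -0.13. Further list medians moved away from 0. Those of collagen chains went from 1.46 and 0.86 to 1.71 and 1.08. Those of respiratory complex I went from -0.48 and -0.37 to -0.53 and -0.45.

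**Figure D5:**
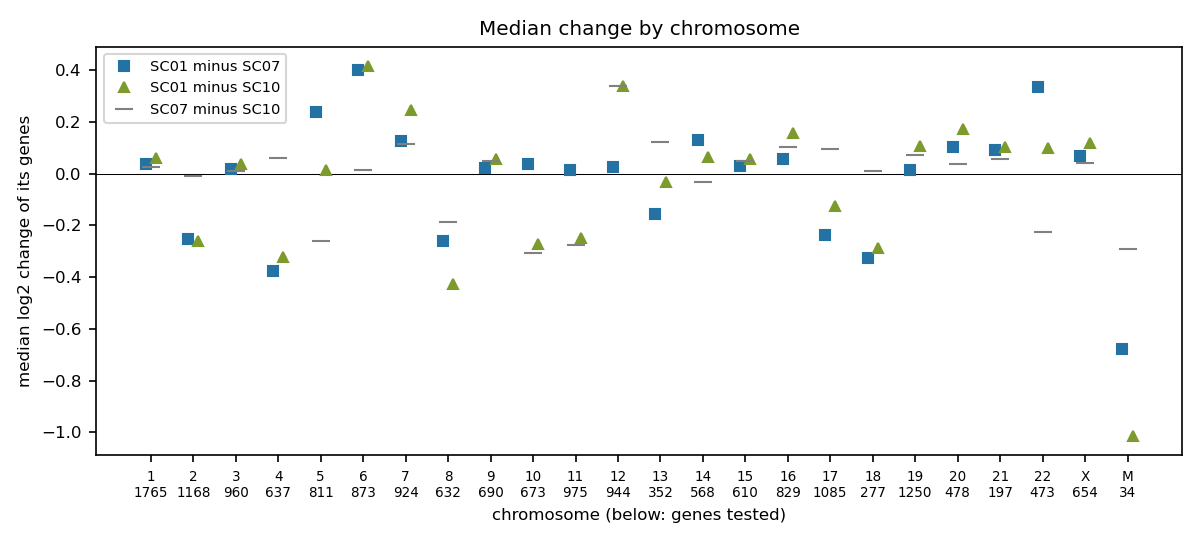
Median log2 change of the tested genes of each chromosome, for SC01 minus SC07 (blue squares), SC01 minus SC10 (green triangles) and SC07 minus SC10 (grey bars), with the number of genes below each chromosome. Chromosome 6 lies above the other chromosomes against both sisters (0.40 and 0.42), and chromosomes 4, 2 and 18 lie below 0 against both with the sisters close to each other.

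Promoter letters were read for the 11356 tested symbols that matched a RefSeq promoter of 300 bases (250 before to 50 after the start, GRCh38.p14, both strands). AAGGTCA, the motif of the estrogen-related receptors through which PGC-1 alpha acts, was present in 3.38% of promoters of genes lower in SC01, 1.49% of those higher and 2.54% of all tested. Among genes at least 4-fold apart the order was the other way, with 4.17% of those higher (9 of 216) and 3.56% of those lower (10 of 281). TGANTCA of AP-1 was present in 9.26% of promoters of genes at least 4-fold higher (20 of 216) and 7.12% of those at least 4-fold lower (20 of 281), against 4.72% of all. GGAATG of TEAD was in 10.8% of higher, 10.5% of lower and 10.9% of all, and CATGTG in 7.06%, 6.43% and 6.93%. The E-box CACGTG was in 10.5%, 9.15% and 10%. The promoters of genes at least 4-fold apart were poorer in CpG, with a median of 15 CpG per 300 bases for those higher and 18 for those lower, against 26 for all tested.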

How the data were processed

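The authors deposited a table of raw read counts per Ensembl gene (60675 genes) for the 9 libraries. HISAT2 and featureCounts on the GRCh38 build made them, per the submitters' processing notes. Which tool versions, annotation release and strandedness applied, and how multi-mapping reads were handled, is not given in the sources used here, and each can change the counts of overlapping, antisense and near-identical genes. Clone and replicate number of each library follow its label. GENCODE 29 (GRCh38) named 57055 of the genes, and 138 of those tested had no name there.

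Genes were kept with filterByExpr (18009, of which 13591 were protein-coding), TMM-scaled and fitted with all 9 libraries sharing 1 estimate of the spread, by the robust quasi-likelihood test of edgeR 4.0.16 in R 4.3.3. Benjamini-Hochberg adjustment ran over all genes tested, with a threshold of 0.05. CPM values are TMM-scaled. Standard errors, the log2 change over the root of its F statistic, are too small for genes near 0 CPM in a clone. A fold against 0 counts is bounded by setting 3 counts there, and ratios to 1 to 3 counts have exact 95% intervals. Intervals and floors cover counting error only. No set test was run: lists are described by counts and medians beside those of all genes tested. The 36 gene lists and 6 marker lists, the members and the rule for named genes were chosen with earlier results of these data known.

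The rule for named genes took protein-coding genes apart from both clones whose SC01 libraries lay on 1 side of the other 6 and whose higher side averaged at least 5 CPM. It named the 14 in each direction with the largest smaller pair change and the 8 with the largest difference in CPM, and added up to 4 genes per list and 7 melanoma markers. Symbols without a proper name (open reading frame, KIAA, FAM, TMEM and numbered zinc finger symbols) were passed over. Ranking CPM differences among nuclear genes alone, and list medians centred by chromosome, were added after seeing the data. The text shows a selection of the genes the rule names. Promoters came from RefSeq (GRCh38.p14). The scripts were tested on simulated counts with known changes.

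Alternatives were other scalings and filters, DESeq2 1.42.0, limma-voom (3.58.1), a non-robust fit, a test against a 1.5-fold change, replicate number as a block, leaving out mitochondrially encoded genes and leaving out each library.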

Additional observations from a re-analysis of the deposited data

How the results depend on the processing

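Against a change of 1.5-fold instead of 0, 3896 genes differed between SC01 and the mean of its sisters (1712 higher, 2184 lower), 2518 were apart from both (1024 higher, 1494 lower), and 333 list genes were apart from both. Of 18 named genes that then missed the threshold, MITF, EEF2, MT-CO1, MT-CO3, CTNNB1, RPL22 and RPL32 are examples. No named gene changed direction under the alternatives run. Leaving out 1 library at a time gave 11254 to 12422 genes for the contrast and 7896 to 8639 apart from both. COL1A1 alone of the named genes missed the threshold without SC01 replicate 1 (adjusted p = 0.0508, edgeR). DESeq2 called 11596 and 8024 genes, limma-voom 12050 and 8385. Library totals raised every chromosome median, turning that of chromosome 10 from -0.104 to 0.005 and of chromosome 13 from -0.08 to 0.029. Replicate numbers did not pair the clones: deviations of same-numbered libraries correlated at -0.0195 to 0.0429, and with the replicate block 12089 genes differed and 8468 were apart from both. Clone and batch cannot be told apart, each clone is 1 clone, and genes with few counts in a clone have folds known only as bounds.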

Other observations

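Further genes with clear differences are given here, some of them related to groups described above. KDR, a receptor of vascular endothelial growth factor A that serves as an endothelial marker, measured 20.8 CPM in SC01, against means of 5.41 CPM in SC07 and 3.56 in SC10. Of 5 endothelial markers tested 1 was higher and 2 lower than in both sisters, with a summed level of 63.6 to 67.6 CPM in SC01 against 69.8 to 78.5 in SC07 and 65.6 to 72.5 in SC10. PECAM1, CDH5, TEK and TIE1 did not pass the expression filter. Of 8 keratinocyte markers 1 was higher and 2 lower, with summed levels of 34.4 to 35.4, 39.6 to 42.6 and 35.9 to 39.8 CPM. The endothelial and keratinocyte counts stand beside 22.3% higher and 24.2% lower over all genes tested, and are not read as a trait. KRT5 and TP63 did not pass the filter.

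Of 11 Schwann and neuronal markers 4 were higher and 3 lower, of which 1 and 2 were at least 2-fold from both. Over all genes tested 22.3% were higher and 24.2% lower. Among the lower markers MBP, a myelin protein, measured 92.8 CPM in SC01, against 204 in SC07 and 224 in SC10. It shares 10.7% of its exon bases with another gene. TUBB4A, a beta-tubulin of neurons that is not in this marker list, measured 279 ± 14.1, 1596 ± 76.4 and 1159 ± 95.2 CPM. Of its exon bases 15.9% are shared. CTNNB1, beta-catenin, was lower as well (1519 ± 50.4, 2500 ± 39.5 and 2201 ± 27 CPM). Of 1360 long non-coding genes that are not antisense 240 were higher and 181 lower, and of 1120 antisense genes 138 were higher and 123 lower, whose reads cannot be told from those of their partners without the strand setting. The 7 fibroblast markers tested gave 1 higher and 2 lower, 3 immune markers 0 higher and 1 lower, and 12 melanoma markers 5 higher and 6 lower.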
